A study of Mus musculus with 6 samples.

Results

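Integrins and laminins, the receptors and a main ligand family of the basement membrane, were examined in the molar tooth germ and the oral tissue around it. The set held 34 genes of 19057 measured: 17 integrin alpha subunits, 8 integrin beta subunits and 9 laminin chains. They were taken by gene symbol alone (Itga, Itgb and Lama, Lamb or Lamc followed by the number or letter of the subunit). Itga10 and Lama3 were not analysed here.

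RNA of CD-1 mice, an outbred stock, was measured at embryonic day 13.5 on 6 Illumina bead arrays, which read each gene with short probes in 1 colour. The study set the germ of the lower molar against mandibular oral tissue that held neither tooth nor bone, and 3 arrays are titled tooth germ and 3 oral tissue. The labels name no transgene and no treatment. Tissue was pooled over several mice, and arrays with the same number in both groups come from 1 litter, which gives 3 pairs.

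The labels contradict each other: titles and descriptions name one set of 3 libraries tooth germ, while the source and tissue fields name the other set so. Groups follow the titles here, and every sign below would turn if the tissue fields were right. Msx1, a homeobox gene of dental mesenchyme, read 10.78, 11.41 and 11.09 in oral tissue and 12.67, 12.66 and 12.36 in tooth germ. The hedgehog ligand gene Shh, which the dental epithelium makes, read 7.30, 7.01 and 7.04 against 7.62, 7.90 and 8.18. Both were higher in every library titled tooth germ, while Myod1, the regulator of skeletal muscle, was higher in every library titled oral tissue (9.13, 8.71 and 9.06 against 7.46, 7.52 and 7.50). All values are signals on the deposited log2 scale. Their median over all probes was 7.01 and their upper quartile 7.84 on each array. With 3 arrays a group, precision is limited by their number. The signal of one gene cannot be set against that of another, because each probe binds with its own efficiency.

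An integrin is a pair of 1 alpha and 1 beta subunit that spans the cell membrane and holds the cell to its matrix. A laminin is a trimer of 1 alpha, 1 beta and 1 gamma chain, and laminin sheets form the base of every epithelium. The tooth bud is an ingrowth of oral epithelium into mesenchyme, with a basement membrane between the tissues that signals must cross. In basal epithelial cells the Itga6 and Itgb4 products pair in the hemidesmosome, the rivet that ties keratin filaments to an epithelial laminin built with the Lamb3 product.

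Of the 5 measured genes of the epithelial basement membrane and hemidesmosome 4 were higher in tooth germ, and the epithelial beta subunit Itgb6 and the muscle laminin receptor Itga7 were lower. Of the 34 genes 5 were called higher (Lamb3, Itgb4, Lama5, Itga3 and Lamc3), 2 were called lower (Itgb6 and Itga7) and 27 were not called, with limma at an adjusted p under 0.05 over all genes. Over all 19057 genes 2.39% were called higher and 3.42% lower, while 14.7% and 5.88% of the 34 genes were. Each of the 7 called genes moved the same way in all 3 litters, which follows from their groups not overlapping. With litter as a block, 9 were called higher and 3 lower, where all genes gave 3.86% and 5.02%. The additions were Itga6, Lama1, Itgb5 and Itgav on the higher side and Lamb1 on the lower side. With litter as a random effect 10 of the 34 were called, without Itgb5 (adjusted p = 0.0904) and Itgav (adjusted p = 0.156). The median log2 difference of the 34 genes was 0.0073 and that of all genes 0.0026. The groups did not overlap for 13 of the 34 genes (38.2%), and for 23.1% of all genes. The count of 7 fell to 4 without oral tissue library 1 or 2 and to 3 without tooth germ library 2.

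**Figure D1:**
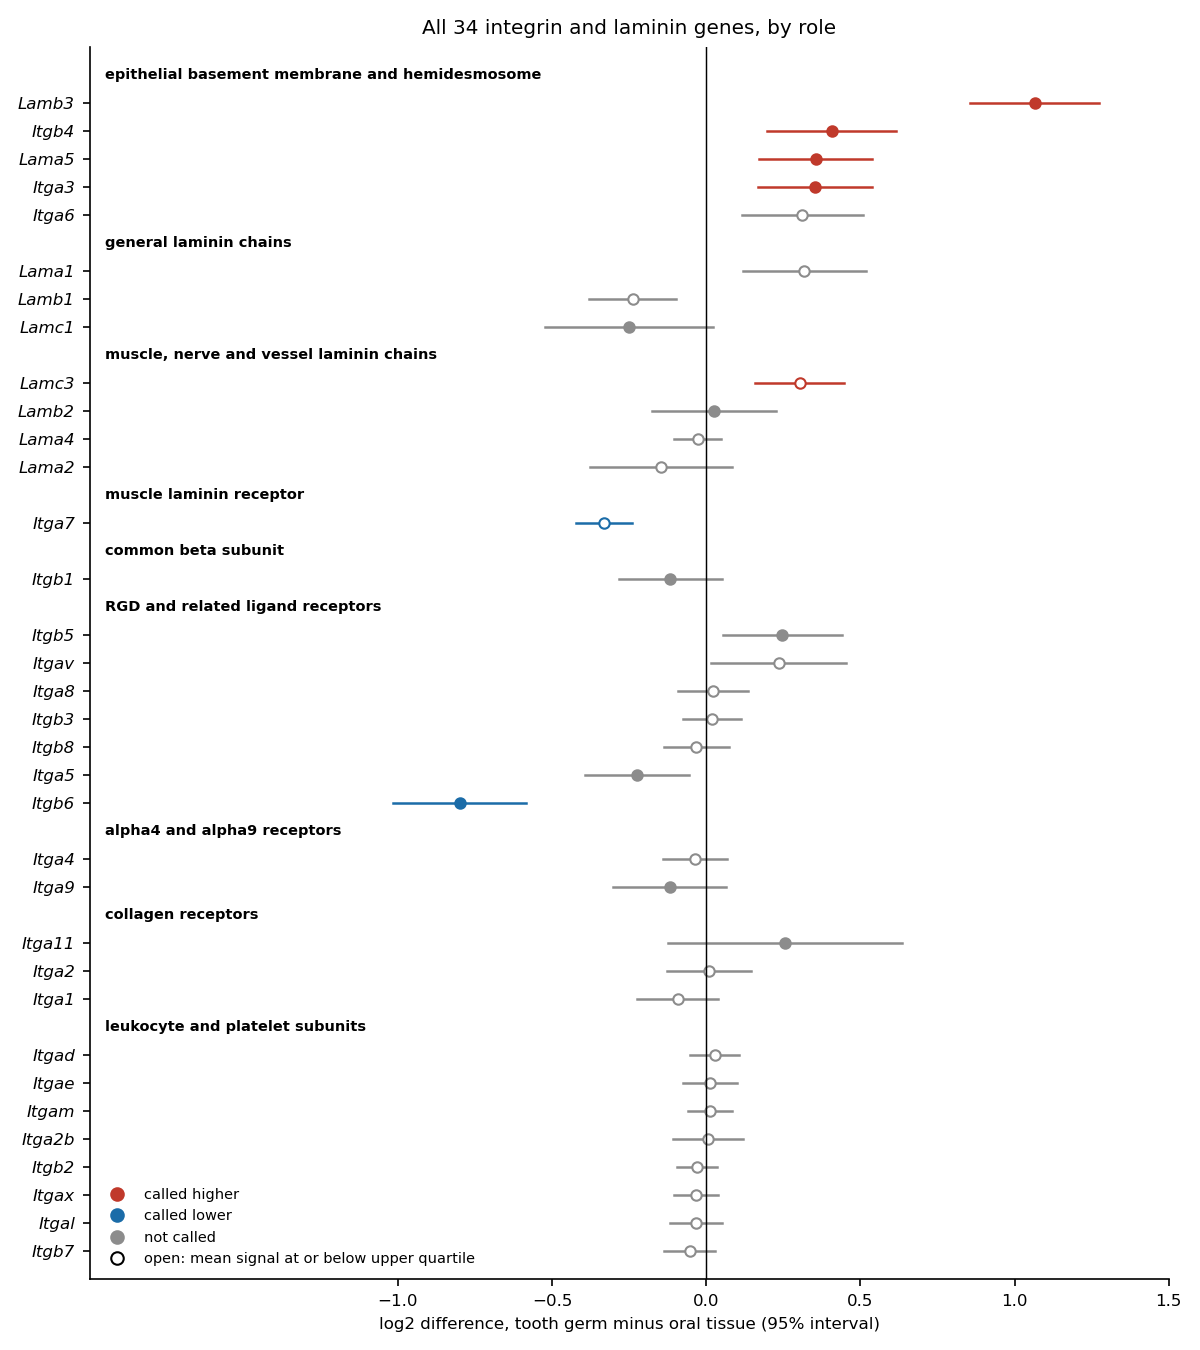
Log2 difference between tooth germ and oral tissue (x axis, with the 95% interval of the fit, n = 3 per group) for each of the 34 genes, grouped by role. Open points mark genes whose mean signal is at or below the upper quartile of all values; Lamb3 at 1.07 and Itgb6 at -0.80 lie farthest from 0, and the 8 leukocyte and platelet subunits lie between -0.054 and 0.028.

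Lamb3, which encodes the beta chain of the epithelial laminin, showed the largest difference of the 34 genes. Its signals were 8.23, 8.43 and 8.18 in oral tissue and 9.19, 9.41 and 9.43 in tooth germ. All 3 tooth germ libraries stood clear of all 3 oral tissue libraries. The log2 difference was 1.07 (SE 0.095, adjusted p = 4.6e-05), or 2.09-fold, and the litters gave 0.96, 0.98 and 1.25. The call held in all 22 alternative settings, with an adjusted p between 3.9e-06 and 0.0028. Lamb3 had 1 probe, so the settings on probe choice could not change its values.

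The hemidesmosome subunit Itgb4 followed. It read 10.10, 10.02 and 9.97 in oral tissue and 10.24, 10.49 and 10.58 in tooth germ, and its groups did not overlap although litter 1 gave only 0.15 against 0.47 and 0.60 in litters 2 and 3. The log2 difference was 0.41 (SE 0.096, adjusted p = 0.0280). Its partner Itga6 read 7.30, 7.40 and 7.54 against 7.63, 7.92 and 7.63. These groups did not overlap either, and the log2 difference of 0.31 (SE 0.089) missed the threshold (adjusted p = 0.0702). It passed once litter entered as a block (adjusted p = 0.0238), and without oral tissue library 3 (adjusted p = 0.0465).

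Itga3 encodes an alpha subunit that binds epithelial laminins, and Lama5 the alpha chain of the laminin most widespread in epithelial basement membranes. Itga3 read 8.54, 8.62 and 8.59 in oral tissue and 8.88, 9.09 and 8.84 in tooth germ. It was higher by 0.35 on the log2 scale (SE 0.085, adjusted p = 0.0302). Lama5 read 8.15, 8.19 and 8.07 against 8.35, 8.50 and 8.62, which is 0.35 higher on the log2 scale (SE 0.083, adjusted p = 0.0275). For both genes the lowest tooth germ library lay above the highest oral tissue library. All 5 measured genes of this epithelial group had 95% intervals above 0, which are not adjusted for the number of genes. The lowest bound, 0.12, was that of Itga6, which was not called.

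Leaving out 1 library ended several of these calls. The Itgb4 call was lost without any single oral tissue library or without tooth germ library 2 or 3 (adjusted p between 0.0529 and 0.104). That of Itga3 was lost without any single oral tissue library or tooth germ library 1 or 2 (0.0598 to 0.112), and that of Lama5 without oral tissue library 1 or 3 or tooth germ library 2 or 3 (0.0710 to 0.107; all adjusted p by limma).

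Markers of epithelium rose as well. Of 12 epithelial markers 8 were higher (Trp63, Krt5, Krt14, Krt17, Krt8, Krt18, Esrp1 and Grhl2), Krt15 was lower and 3 were not called, of which Epcam and Perp lay below the median of all values. Trp63, the transcription factor of stratified epithelium, differed by 1.01. The summed linear signal of the 12 markers ran from 23570 to 27263 in oral tissue and from 41209 to 44277 in tooth germ. In tissue of mixed cells, fewer cells of a type and less RNA per cell cannot be told apart, and the part of the epithelial share in the differences of the laminin and integrin genes was not tested.

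**Figure D2:**
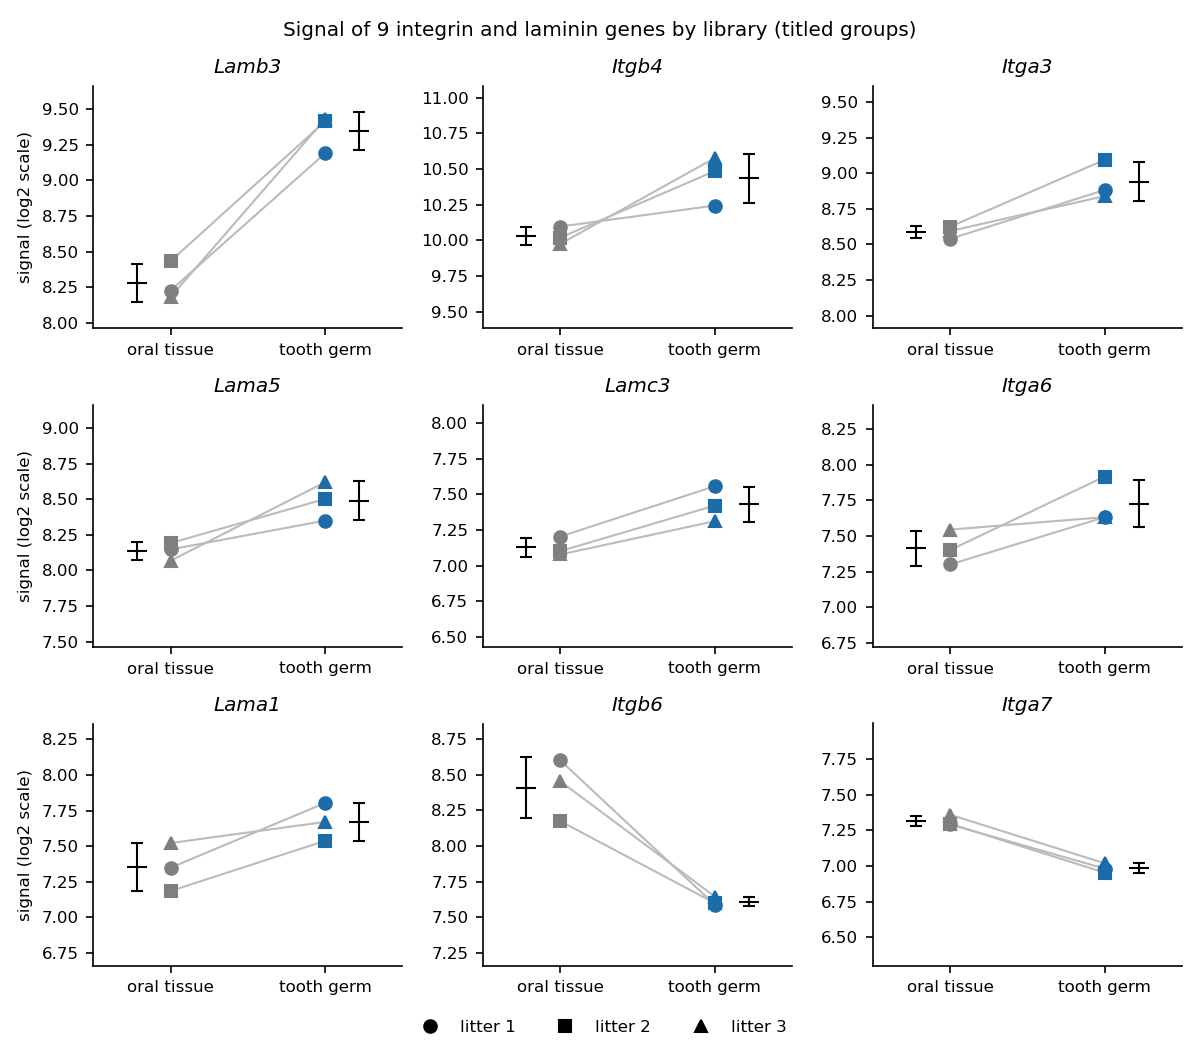
Signal on the log2 scale (y axis, each panel spanning the same number of log2 units) of 9 genes in each library, oral tissue at left and tooth germ at right, with lines joining the libraries of a litter and bars showing mean ± SD (n = 3). The groups do not overlap in any panel, as in 13 of the 34 genes and 23.1% of all genes. Itgb6 and Itga7 are lower in tooth germ and the other 7 are higher, of which Itga6 and Lama1 were not called.

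Of the 7 called genes, 4 had a start site in the RefSeq promoter table (GRCm38.p6), and their sequences are shown because these genes carry the difference in both directions. Each is the 250 bases before the outermost listed start, 5′ to 3′ on the gene's own strand. Both strands were searched for the GC box as GGGCGG, the AP-2 site as GCCNNNGGC, the AP-1 site as TGANTCA, the EGR site as GCGNGGGCG, one form of the E-box as CAGCTG and the usual TATA box as TATAAA, and capitals mark every match; the EGR letters can overlap a GC box. Lamb3 lies at chr1:193301744-193301993 (+), Itga3 at chr11:95076715-95076964 (-), Lama5 at chr2:180225860-180226109 (-) and Itgb6 at chr2:60722604-60722853 (-).
Lamb3: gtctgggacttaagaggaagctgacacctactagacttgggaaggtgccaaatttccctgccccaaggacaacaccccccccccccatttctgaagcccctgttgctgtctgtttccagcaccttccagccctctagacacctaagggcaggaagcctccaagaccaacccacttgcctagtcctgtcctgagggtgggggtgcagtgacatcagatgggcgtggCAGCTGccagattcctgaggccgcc
Itga3: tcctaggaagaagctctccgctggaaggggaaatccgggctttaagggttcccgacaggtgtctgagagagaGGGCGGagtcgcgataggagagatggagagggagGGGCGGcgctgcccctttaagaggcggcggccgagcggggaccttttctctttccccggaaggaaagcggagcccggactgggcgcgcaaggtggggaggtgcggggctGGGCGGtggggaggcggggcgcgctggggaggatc
Lama5: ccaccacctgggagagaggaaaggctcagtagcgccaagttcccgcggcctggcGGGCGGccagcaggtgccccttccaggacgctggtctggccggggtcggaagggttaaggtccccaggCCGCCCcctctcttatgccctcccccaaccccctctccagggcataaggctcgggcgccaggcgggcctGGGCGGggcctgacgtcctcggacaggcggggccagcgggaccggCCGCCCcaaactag
Itgb6: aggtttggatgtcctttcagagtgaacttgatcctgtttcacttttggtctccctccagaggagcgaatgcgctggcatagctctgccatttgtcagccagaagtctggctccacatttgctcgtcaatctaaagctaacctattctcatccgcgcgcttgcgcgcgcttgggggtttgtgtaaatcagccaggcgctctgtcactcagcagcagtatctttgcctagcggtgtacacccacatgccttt

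The GC content of these windows was 58.8% for Lamb3, 67.6% for Itga3, 72.4% for Lama5 and 52.0% for Itgb6, beside a median of 52% over the 27025 genes of the table. Itga3 held 3 and Lama5 held 4 GC boxes, a motif found in 33% of all windows and in 8 of the 22 windows of integrin and laminin genes in the table. Lamb3 held 1 E-box, 25 to 20 bases before the start. That motif stood in 12.7% of all windows and in 6 of the 22 windows of integrin and laminin genes. The Itgb6 window held none of the motifs searched. The AP-2 letters stood in 13.5%, AP-1 in 6.85%, EGR in 4.63% and the TATA box in 13% of all windows, and in none of these 4.

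Itgb6 went against the other epithelial genes. Its product pairs with that of Itgav to form an integrin of epithelial cells that binds fibronectin and tenascin and activates latent TGF-beta. Signals were 8.60, 8.18 and 8.46 in oral tissue and 7.59, 7.60 and 7.65 in tooth germ. The 3 tooth germ libraries lay close together, between 7.59 and 7.65, and below every oral tissue library. The log2 difference was -0.80 (SE 0.098, adjusted p = 4.1e-04), which is 1.74-fold higher in oral tissue, with litter values of -1.01, -0.58 and -0.81. The call held in all 22 alternatives, and the difference ran from -0.37 as a mean of all 4 probes to -1.27 where a background was subtracted on the linear scale. The 95% interval ran from -1.01 to -0.59. Those of Itgb4 (0.20 to 0.62) and Lamb3 (0.86 to 1.27) lay above 0, as calls in opposite directions require. Of the 12 epithelial markers only Krt15 was called lower in tooth germ (log2 difference -0.39, adjusted p = 0.0464), while 8 were called higher.

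Itgav, the alpha partner of the Itgb6 and Itgb5 products among others, did not share this fall. It read 7.60, 7.44 and 7.38 in oral tissue and 7.88, 7.77 and 7.46 in tooth germ, with overlapping groups and a log2 difference of 0.23 (adjusted p = 0.250), and was called once litter entered as a block (adjusted p = 0.0438) or tooth germ library 3 was left out (adjusted p = 0.0361), but not with litter as a random effect (adjusted p = 0.156). Itgb5, whose product binds vitronectin with that of Itgav, was the brightest probe in the set and read 11.55, 11.55 and 11.44 against 11.86, 11.84 and 11.58. Its groups did not overlap, and the log2 difference of 0.25 (95% interval 0.053 to 0.44) missed the threshold (adjusted p = 0.155). The adjusted p was 0.0443 in the fit that blocks on litter and 0.0323 when tooth germ library 3 was left out, but 0.0904 with litter as a random effect.

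None of the 3 chains of the general laminins passed the threshold in the fit without a block. Lama1, the alpha chain of the earliest embryonic laminin, read 7.35, 7.19 and 7.52 in oral tissue and 7.80, 7.54 and 7.67 in tooth germ, higher in each litter. The log2 difference of 0.32 (SE 0.090, adjusted p = 0.0682) passed once litter entered as a block (adjusted p = 0.0095), and without oral tissue library 3 (adjusted p = 0.0225). The beta chain Lamb1 read 7.70, 7.56 and 7.63 against 7.46, 7.41 and 7.30. It was lower in each litter, with a log2 difference of -0.24 (SE 0.064, adjusted p = 0.0540) that passed with litter as a block (adjusted p = 0.0238) and in 5 of the other 21 alternatives. The linear background subtraction gave 0.67 for Lama1 (adjusted p = 0.158), -0.49 for Lamb1 (adjusted p = 0.0945) and 0.62 for Itga6 (adjusted p = 0.138), none of them called. Lamc1, the gamma chain of most laminins, read 10.59, 10.17 and 10.47 against 10.36, 10.15 and 9.96 and was not called (log2 difference -0.25, 95% interval -0.52 to 0.023). Its groups overlapped, since oral tissue library 2 lay below tooth germ library 1.

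Among the laminin chains of muscle, nerve and vessels, Lamc3 was called. This gamma chain of low signal read 7.20, 7.10 and 7.08 in oral tissue and 7.56, 7.42 and 7.31 in tooth germ. It rose by 0.30 on the log2 scale with no overlap (SE 0.065, adjusted p = 0.0171). The call was lost without oral tissue library 2 or 3 or tooth germ library 1 or 2 (adjusted p between 0.0522 and 0.0685). The difference was 0.76 with a linear background subtraction (adjusted p = 0.0511) and 0.087 as a mean of all 4 probes. Lamb2, the beta chain of synaptic and vessel laminins, read 8.67, 8.64 and 8.45 against 8.65, 8.46 and 8.73 (log2 difference 0.025, 95% interval -0.18 to 0.23), and its sign turned without oral tissue library 3 or tooth germ library 3 (-0.042 and -0.034). Lama2, the alpha chain of the muscle basement membrane, differed by -0.15 and was not called (adjusted p = 0.544), and Lama4, a chain of vessel walls, by -0.027 (adjusted p = 0.767).

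Itga7, the laminin receptor of skeletal muscle, was lower in tooth germ. It read 7.29, 7.30 and 7.36 in oral tissue and 6.98, 6.95 and 7.02 in tooth germ. The tooth germ values lay at about the median of all probes, where a difference can be understated. The log2 difference was -0.33 (SE 0.042, adjusted p = 5.3e-04), the litters gave -0.31, -0.34 and -0.34, and a linear background subtraction made it -0.99 (adjusted p = 0.0040) and the mean of both probes -0.22 (adjusted p = 0.0029). Of 12 muscle markers 10 were lower, from Myod1 (-1.47) to the cardiac actin gene Actc1 (-2.52), while Myf5 and Ckm were not called and Myf5 lay below the median of all values. The summed linear signal of the list ran from 27810 to 45400 in oral tissue and from 8570 to 10940 in tooth germ. The part of muscle in the fall of Itga7 was not tested.

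Itgb1, the beta subunit that most alpha subunits share, did not differ beyond its spread. It read 8.24, 8.02 and 8.11 in oral tissue and 8.06, 8.01 and 7.95 in tooth germ (log2 difference -0.12, 95% interval -0.28 to 0.050, adjusted p = 0.498). Itga5, the alpha subunit of the classical fibronectin receptor, read 9.14, 9.12 and 9.22 against 9.01, 8.93 and 8.86. Its groups did not overlap and it was lower in each litter, but the log2 difference of -0.23 (95% interval -0.39 to -0.056) was not called, with an adjusted p = 0.134, or with litter as a block (adjusted p = 0.0899).

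Itga9, which binds tenascin and other ligands, read 10.32, 10.32 and 10.33 in oral tissue and 10.34, 10.18 and 10.10 in tooth germ (log2 difference -0.12, 95% interval -0.30 to 0.065). The collagen receptor subunit Itga11 had the widest spread of the 34 genes. It read 9.32, 9.14 and 8.54 against 9.47, 9.03 and 9.27, with a log2 difference of 0.26 (95% interval -0.12 to 0.64) and litter values of 0.15, -0.10 and 0.72. Neither gene was called, and both had overlapping groups.

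The remaining 16 genes had a mean at or below the upper quartile of all values and log2 differences between -0.15 and 0.028, and none had an unadjusted p under 0.05 (limma). They are Lama2 and Lama4 above, the receptor subunits Itga1, Itga2, Itga4, Itga8, Itgb3 and Itgb8, and 8 subunits of leukocytes and platelets (Itgal, Itgam, Itgax, Itgad, Itgae, Itgb2, Itgb7 and Itga2b). All 8 of the last group read between 6.82 and 7.36 in every library, at about the median of all probes, and 4 of them had a mean below it. Of 10 macrophage and leukocyte markers 6 were lower in tooth germ, with summed linear signals of 4025 to 4614 in oral tissue and 3027 to 3315 in tooth germ. Signals this low limit what could be seen of these 8 subunits.

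**Figure D3:**
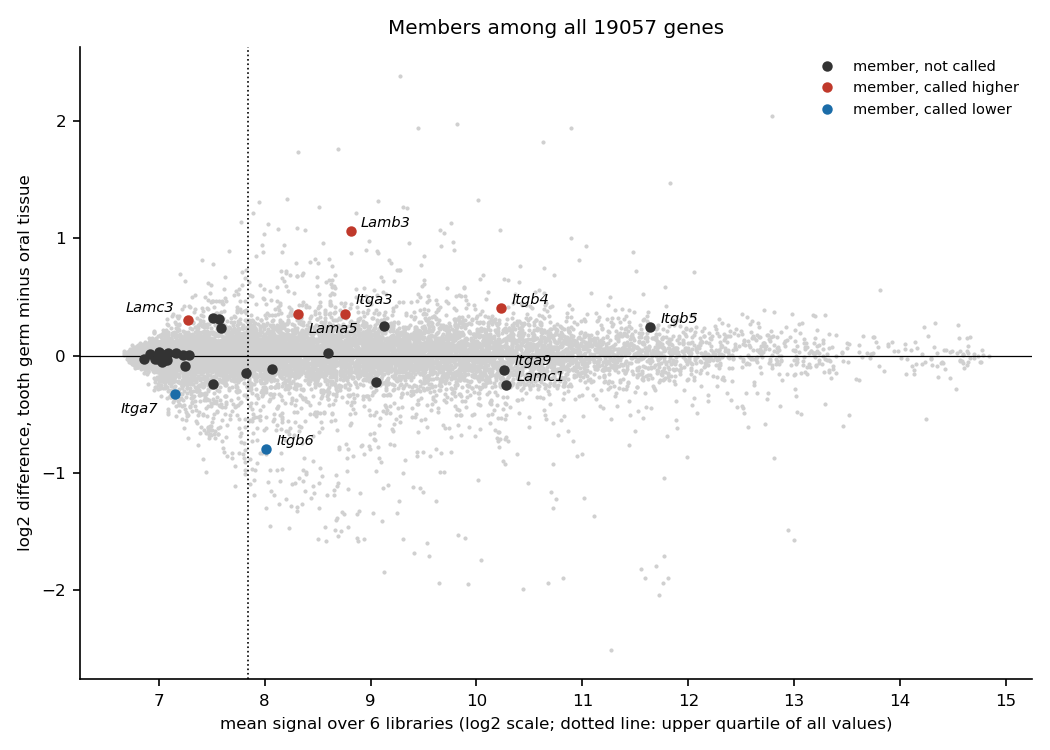
Mean signal over the 6 libraries (x axis, log2 scale) against the log2 difference between tooth germ and oral tissue (y axis) for 19057 genes in grey and the 34 integrin and laminin genes in colour. 12 of the 34 lie right of the dotted line at the upper quartile of all values, 7.84, among them Lamb3 and Itgb6; the other 22 lie left of it.

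Of the 34 genes 21 had several probes, and these did not always tell the same story. Both probes of Itgb4 were higher in tooth germ, by 0.41 and 0.50, the second annotated to another transcript (adjusted p = 0.0403 and 0.0341, limma over all probes). For Itgb6 the brightest probes both fell, by 0.80 and 0.56, and the remaining pair, of low signal, differed by -0.12 and 0.011. Dimmer probes of Itga7 (-0.10), Itga6 (0.10 and -0.0045) and Lamc3 (-0.020, 0.033 and 0.033) were not called. For Itgb1 the 2 probes differed in sign (-0.12 and 0.058), neither of them called. Lamc1 had another bright probe, which differed by -0.0090.

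**Figure D4:**
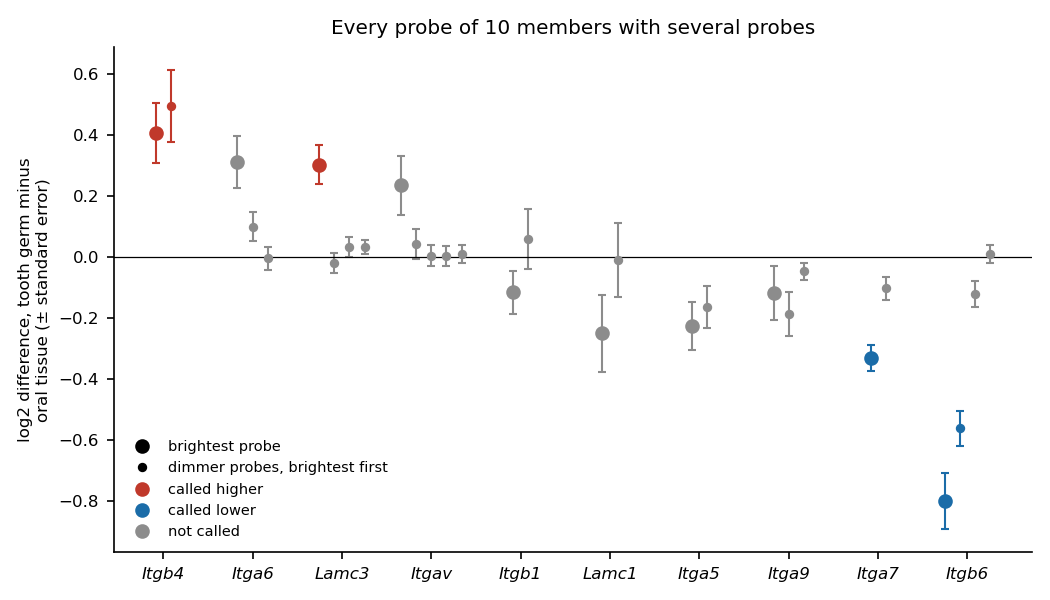
Log2 difference between tooth germ and oral tissue (y axis, ± standard error of a fit over all probes, n = 3 per group) for every probe of 10 genes, brightest probe first and large. Both Itgb4 probes and the 2 brightest Itgb6 probes are called, as are the brightest probes of Lamc3 (0.30) and Itga7 (-0.33) but not their dimmer ones.

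Integrins act through adaptors in the cell, and laminins through partners in the basement membrane, and most of these genes were not called. Of 56 such genes and other integrin ligands, 4 were higher (7.14%, beside 2.39% of all genes) and 7 lower (12.5%, beside 3.42%) in tooth germ. With litter as a block the counts were 7 and 11, where all genes gave 3.86% and 5.02%. Among 21 adaptors 1 was higher, 3 were lower and 17 were not called (median log2 difference -0.11). Fermt1, the kindlin of epithelial cells that switches integrins on, stood at 8.93 ± 0.24 in tooth germ and 8.32 ± 0.27 in oral tissue (mean ± SD of 3 libraries), and so rose by 0.61 on the log2 scale (SE 0.14, adjusted p = 0.0248). The focal adhesion gene Zyx fell by 0.58 on the log2 scale (SE 0.092, adjusted p = 0.0022) and its litters gave -0.60, -0.58 and -0.57. Ilk, a hub of integrin signalling, fell by 0.32 (adjusted p = 0.0302) and Pxn, a focal adhesion scaffold, by 0.29 (adjusted p = 0.0389).

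Of 19 partners in the basement membrane and hemidesmosome 2 were higher, 1 was lower and 16 were not called (median 0.0030). Those not called included Col17a1 (log2 difference 0.067, adjusted p = 0.851) and Plec (0.020, adjusted p = 0.942, limma). Both had a mean signal above the upper quartile of all values. Dst, which encodes a plakin linking the hemidesmosome to keratin, stood at 8.64 ± 0.097 against 7.96 ± 0.058 (log2 difference 0.68, SE 0.076, adjusted p = 2.3e-04). Frem1, a matrix protein of the epithelial basement membrane, was higher by 0.26 at low signal (adjusted p = 0.0103). Dag1, the laminin receptor dystroglycan of muscle and other tissues, fell by 0.47 (adjusted p = 0.0176).

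Of 16 other integrin ligands 1 was higher, 3 were lower and 12 were not called (median -0.074). Ccn2, a secreted matrix protein, was higher by 0.68 (SE 0.12, adjusted p = 0.0041). Vcam1, a ligand of the Itga4 product, fell by 0.69, from 10.63 ± 0.18 in oral tissue to 9.94 ± 0.043 in tooth germ (SE 0.096, adjusted p = 9.8e-04). Tgfbi, a matrix ligand of integrins, fell by 0.53 (adjusted p = 0.0423) and fibronectin, Fn1, by 0.51 (adjusted p = 0.0382).

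**Figure D5:**
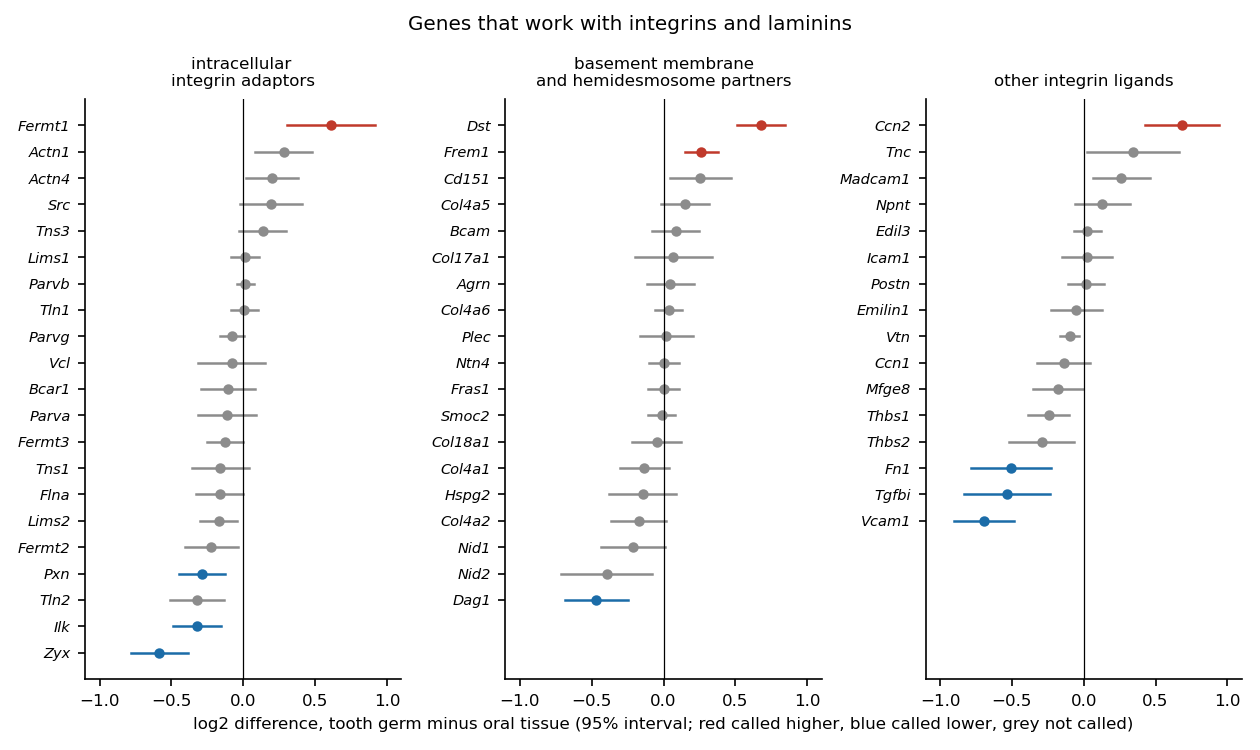
Log2 difference between tooth germ and oral tissue (x axis, with the 95% interval, n = 3 per group) for 56 genes that work with integrins and laminins, in 3 lists. Fermt1, Dst, Frem1 and Ccn2 are called higher, and Zyx, Ilk, Pxn, Dag1, Vcam1, Tgfbi and Fn1 lower.

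The calls of Zyx, Dst, Frem1, Vcam1 and Ccn2 held when any 1 library was left out. Zyx has 1 probe, so averaging over probes could not change its values. When the probes of each gene were averaged, only Zyx and Ccn2 of the 11 were still called. Dst then differed by 0.041 (adjusted p = 0.551), Vcam1 by -0.16, Pxn by -0.058, Frem1 by 0.11, Fermt1 by 0.33, Fn1 by -0.22, Ilk by -0.18, Dag1 by -0.32 and Tgfbi by -0.41. In the leave-one-out fits, calls were lost for Fermt1 without oral tissue library 1 or 2 or tooth germ library 3, for Ilk without any library but tooth germ library 2, for Pxn without any 1 library and for Fn1 without any but tooth germ library 1. That of Dag1 was lost without oral tissue library 1 or 3 or tooth germ library 1 or 2, and that of Tgfbi without oral tissue library 1 or any tooth germ library. The highest adjusted p in these settings was 0.150, for Pxn (limma).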

How the data were processed

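The deposited table holds log2-scale signals per probe for 6 libraries. The authors used lumi 2.8.0, per the submitters' processing notes; the transformation and background correction are not given in the sources used here. When sorted, the columns differ by at most 0.00083, so the authors' log2 values were already quantile normalized and were used as they are. If the scale is a variance-stabilised one, folds of dim genes are understated. Probes with exactly 1 symbol in the platform annotation (34885 of 45281) were kept, and the probe with the highest mean stood for each gene (19057 genes, 81 probes for the 34 members). The fit used limma 3.58.1 under R 4.3.3 (lmFit, eBayes with trend, 4 residual degrees of freedom), with Benjamini-Hochberg adjustment over all genes and calls at an adjusted p under 0.05. The test was checked on simulated data. Errors are moderated standard errors or SD.

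Litter, which the labels give, was an alternative block (2 residual degrees of freedom): deviations from group means correlated at 0.413, 0.233 and 0.266 in the same-numbered pairs and at -0.267 to -0.0724 otherwise. Members and lists were chosen with earlier results of these data known. Named were all called members and those differing by at least 0.3 or brighter than the upper quartile. Up to 4 called genes of each related list were named by size. Itgav and Lamb1 were added after their values were seen, as calls with the block. Col17a1 and Plec were also added after their values were seen, as bright genes of their list that were not called. Ptk2, Frem2, Spp1, Fbn1 and 6 markers of the lists were not analysed here. Alternatives were other normalizations, probe choices, variance models and thresholds, a linear background subtraction and leaving out libraries.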

Additional observations from a re-analysis of the deposited data

How the results depend on the processing

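The calls of Lamb3 and Itgb6 held in all 22 alternatives. Lamb3, Itga3 and Lama5 had 1 probe each, so the settings on probe choice left their values unchanged. Repeated quantile normalization could change little, because the columns were already quantile normalized. That of Itga7 was lost with its second probe only, and those of Itgb4, Lama5, Itga3 and Lamc3 were lost in 9, 9, 10 and 10. With litter as a replicate block 1693 genes, 12 members and 18 related genes were called, in place of 1107, 7 and 11, and it changed no call of a member beyond those given above. A linear background subtraction left 3 members and 7 related genes. The stricter threshold (adjusted p under 0.01) left 601 genes, 3 members and 4 related genes. The mean of all probes left 2 related genes, of which Zyx has only 1 probe, and eBayes without trend left 7 related genes. With second probes Itgb1 differed by 0.058 and Lamc3 by -0.020. Without 1 library or 1 litter, 549 to 1025 genes, 3 to 7 members and 5 to 10 related genes were called, the members' median ran from -0.019 to 0.0073, and Lamb2 from -0.10 to 0.13. Fewer arrays enter these settings; the cause of other changes was not tested. Slide or scan as a block was not run, because the table gives neither. Dim signals, with 22 of 34 members at or below the upper quartile, limit what can be seen.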
